A study of Mus musculus with 1203 samples.

Results

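Colonic tuft cells with much Siglecf mRNA were compared with tuft cells that had little of it, inside each sorting plate set of a single-cell RNA-seq series. Cells were selected on measured values: at least 1000 genes above 0 TPM (a length-normalised share of a cell's transcripts, scaled to the same total in every cell), Trpm5 at 50 TPM or more and Dclk1 at 100 TPM or more. Of the 1203 wells of the series, 1165 were read, 856 of these had at least 1000 genes, and 56.8% of the 856 were tuft-class cells by this rule. Siglecf-high cells, with 60 TPM or more, made up 33.5% of the tuft-class cells and numbered 24, 16, 32, 27, 23, 39 and 2 in plate sets 1 to 7. Siglecf-low cells, with less than 15 TPM, made up 30.5% and numbered 12, 13, 18, 21, 13, 70 and 1. The other 36.01% lay between the thresholds, with 21, 24, 24, 22, 19, 59 and 6 cells.

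The mice were female, 11 weeks old and either wild type (labelled wt) or conditional knockout, which here means Villin-Cre with floxed Ipmk alleles, and their colons were sampled. Villin-Cre acts in the epithelium of the intestine, and Ipmk encodes inositol polyphosphate multikinase. Live cells stained with antibodies to EPCAM and SIGLEC-F were sorted singly into plates and profiled by Smart-seq2, which copies polyadenylated RNA at full length. The sides were divided by Siglecf mRNA among the sorted cells, not by SIGLEC-F protein, and whether protein and mRNA go together in a cell was not measured here. The 120 wells with an epithelial label carry no description of their gate, so whether they were gated on SIGLEC-F is unknown. From these wells came 7 of the Siglecf-high and 8 of the Siglecf-low cells. Wild type cells fill plate sets 1, 3 and 6, and conditional knockout cells plate sets 2, 4, 5 and 7. No label names an animal, so each genotype is 1 sample, no p-value is given, and the SD between plate sets may be technical.

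Tuft cells are rare chemosensory cells of the gut lining. They sense luminal compounds through taste-type G proteins, phospholipase C and the cation channel TRPM5, and release interleukin 25, acetylcholine and lipid mediators. Siglecf encodes SIGLEC-F, a receptor of the sialic acid-binding Siglec family best known from eosinophils, whose cytoplasmic tail carries tyrosine motifs of the kind that Src-family kinases phosphorylate and SH2-domain phosphatases bind. Tuft cells depend on the octamer-binding factor POU2F3, and the mature cells are often divided into a kind rich in neuronal genes and a kind rich in immune genes.

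Promoters from RefSeq (GRCm38.p6) are shown for Siglecf, the gene that divides the cells, and for named genes higher in the Siglecf-high cells by all 4 comparisons used here that hold the octamer ATGCAAAT, a motif recognised by POU-family factors. The 250 bases before the Siglecf start, chr7:43351091-43351340 on the plus strand, hold no octamer. The other windows are chr17:36890245-36890304 on the minus strand (Trim40), chr12:36042565-36042624 on the minus strand (Tspan13) and chr10:115817063-115817122 on the plus strand (Tspan8). Capitals mark the octamer on either strand.
Siglecf: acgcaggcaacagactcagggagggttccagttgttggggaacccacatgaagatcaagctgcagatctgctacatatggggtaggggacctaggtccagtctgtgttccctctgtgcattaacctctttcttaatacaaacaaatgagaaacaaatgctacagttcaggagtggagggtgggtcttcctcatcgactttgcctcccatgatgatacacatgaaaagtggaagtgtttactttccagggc
Trim40: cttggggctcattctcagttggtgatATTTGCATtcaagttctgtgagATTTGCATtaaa
Tspan13: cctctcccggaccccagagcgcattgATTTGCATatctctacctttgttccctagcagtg
Tspan8: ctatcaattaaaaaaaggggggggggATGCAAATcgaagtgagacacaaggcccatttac
Promoter windows of 300 bases, 250 before and 50 after the start, were found for 58 of the 74 genes higher in all 4 comparisons, and 4 of these (6.90%) held the octamer on either strand. The fourth is 1810046K07Rik. The share was 2.04% among tested genes with a promoter and 1.97% among all promoters. AGGAAGT, an ETS-type motif of the kind SPIB binds, was in 15.5% of the 58, in 11.9% of tested genes and in 10.7% of all promoters. The Siglecf window held neither motif. A match is a description of letters, not a binding site.

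Siglecf (ENSMUSG00000039013, protein coding, chromosome 7 from 43351341 to 43359531, plus strand, GRCm38) ranged from 60.25 to 1180.41 TPM in the Siglecf-high cells, with a median of 106.75. In the Siglecf-low cells it ranged from 0 to 14.83, with a median of 5.36, and 55 cells were listed at 0. Those levels follow from the rule and are no result. The thresholds cut a continuous range: the cells nearest to them had 14.83 and 15.04 TPM at the lower and 59.96 and 60.25 TPM at the upper. Trpm5 and Dclk1, which the rule used as a minimum, had medians of 297.55 and 582.16 TPM in the Siglecf-high cells and 155.01 and 376.29 TPM in the Siglecf-low cells.

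The sides differed in how much of the transcriptome was seen. Pooled over plate sets 1 to 7, a Siglecf-high cell had a median of 3183 genes above 0 TPM, a cell between the thresholds 2669 and a Siglecf-low cell 2116. Within plate sets the medians of the sides differed by 1045 ± 433.6 genes (SD, n = 6 plate sets), from 651.5 to 1706.5, so the Siglecf-high side was higher in 6 of 6. The share of Siglecf-high cells was 12.96% among the 54 tuft-class cells with 1000 to 1500 genes, and 56.4% among the 78 with 4000 or more. Rn18s-rs5, which stands for 18S ribosomal RNA, took a pooled median of 77.7% of all TPM in Siglecf-high and 82.7% in Siglecf-low cells. That leaves a larger share of the fixed total for the other genes together in Siglecf-high cells. Read depth is unknown from TPM, and the part of depth or of RNA per cell in these gaps was not tested.

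**Figure D1:**
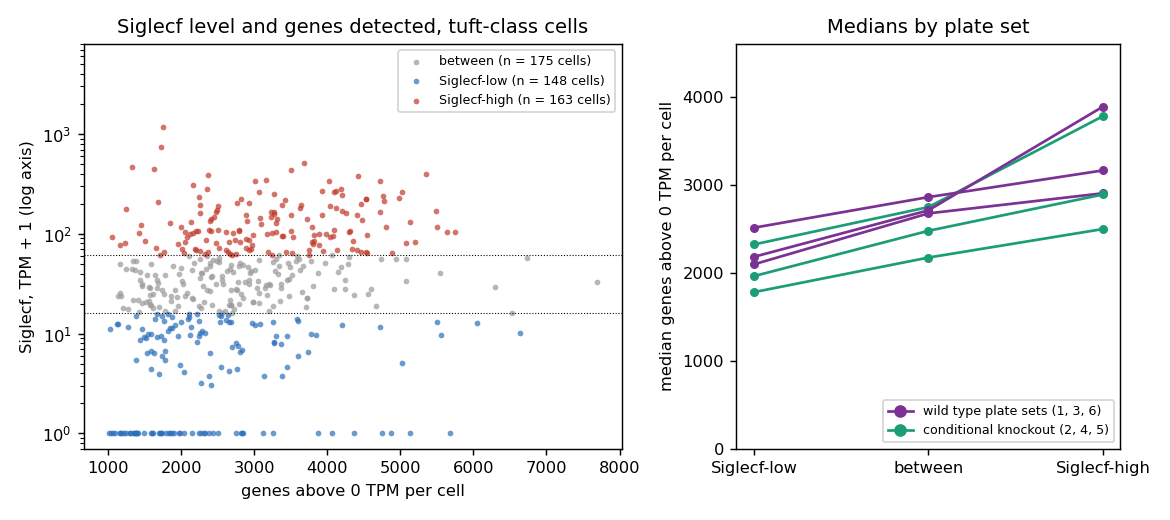
Siglecf, as TPM plus 1 on a log axis, against the number of genes above 0 TPM in each tuft-class cell (left, dotted lines at the thresholds), and the median number of genes by side, with 1 line per plate set (right). Medians rose from the Siglecf-low over the middle to the Siglecf-high cells in each of the 6 plate sets drawn.

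Genes were therefore compared in 4 ways. A difference is that of log2(mean TPM + 1) between the sides within a plate set, averaged over the 6 plate sets with at least 5 cells a side; plate set 7, with 2 Siglecf-high cells and 1 Siglecf-low cell, was not used. A gene with at least 10 TPM on a side was called when its averaged difference was 1.5-fold or more and had the same sign in all 6 plate sets, at any size in each. On TPM as deposited, 839 of 2694 genes were higher (31.1%) and 11 lower (0.408%), and the median difference over all tested genes was 0.89. In 74 pairs of cells matched on genes detected, within 300 genes, 250 of 2415 were higher (10.4%) and 54 lower (2.24%), with a median of 0.28. The matched cells had medians of 2484.5 and 2405.5 genes detected and 79.1% and 80.8% of TPM in 18S, so a gap remained. In plate set 5 the matched medians were 2135.5 and 1864 genes. The pairs numbered 9, 5, 11, 15, 10 and 24 in plate sets 1 to 6, which weigh the same. The part of these smaller numbers of cells in calls lost on matching was not tested. After TPM was rescaled without 18S, mitochondrial genes and the 20 most abundant other genes, 5.78% of 9629 were higher and 2.53% lower, with a median of 0.22. The floor of 10 TPM and the added 1 TPM were kept, though rescaling raises the values, so many more genes were tested. Shares and list counts as deposited and rescaled are therefore over unlike sets of genes. With both steps, 2.67% of 9558 were higher and 1.87% lower, and the median was −0.01. The genes called in all 4 comparisons lead the account here, a choice made after values were seen: of 2179 genes tested in each, 74 were higher (3.4%) and 5 lower (0.229%).

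**Figure D2:**
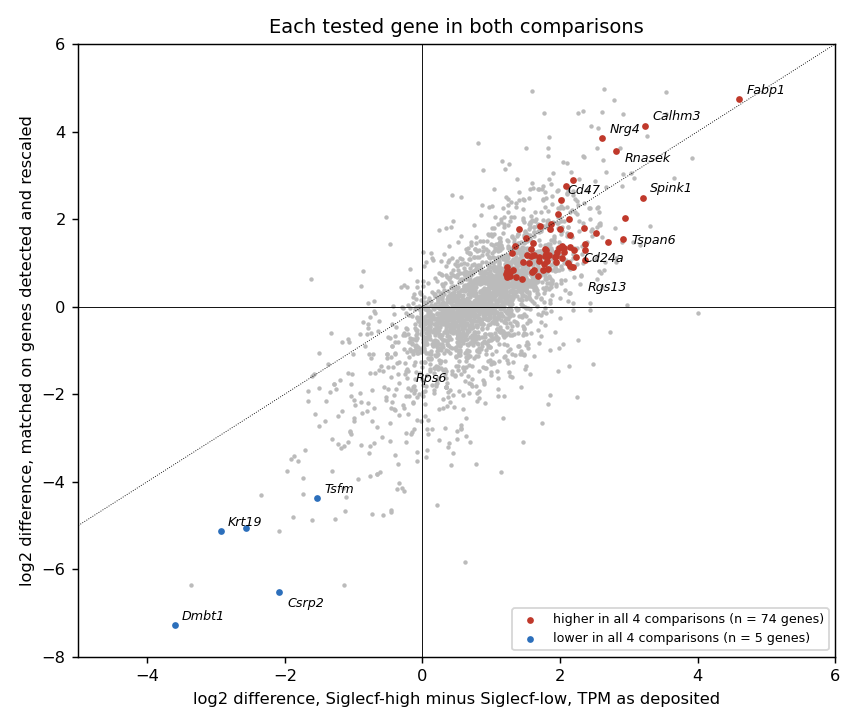
Log2 difference between Siglecf-high and Siglecf-low cells for 2635 genes tested in both comparisons, on TPM as deposited (x axis) and after matching on genes detected and rescaling (y axis); the dotted line marks equal values. The 74 genes in red and 5 in blue were called in all 4 comparisons, and most points lie to the right of 0 on the x axis while the y values centre near 0.

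The 74 genes were grouped by role after their values were seen. Rac2, a small GTPase of blood cells (ENSMUSG00000033220, chromosome 15 from 78559167 to 78572783, minus strand), spanned 59.6 to 103.3 TPM (median 74.3) on the Siglecf-high and 14.8 to 40.2 TPM (median 18.6) on the Siglecf-low side. The ranges did not overlap, as for 16.04% of the 2694 genes tested, each of them higher. The log2 difference of Rac2 was 1.77 ± 0.41 as deposited (SD, n = 6) and 1.16 ± 0.33 with matching and rescaling. Cd300lf, a lipid-binding surface receptor known as the entry receptor of murine norovirus on tuft cells, ran from 102.01 to 164.9 TPM against 32.1 to 61.5 TPM. The log2 difference of Cd300lf was 1.55 ± 0.38 as deposited and 1.00 ± 0.51 with both steps.

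Surface proteins of the same set covered adhesion and recognition. Cd24a, a small glycosylated surface protein much used to sort tuft cells, had means of 828.2 to 1370 TPM (median 1208) in Siglecf-high and 107.1 to 252.6 TPM (median 192.2) in Siglecf-low cells. It was detected in nearly all cells of both sides, so its difference of 2.70 ± 0.68 was one of level. With both steps it was 1.48 ± 0.43. Cd47, the ligand of the phagocyte receptor SIRPA, was at 27.6 against 6.27 TPM on average, and Adgre5, the adhesion receptor also called CD97, at 16.04 against 4.11 TPM. Sema7a, a membrane-anchored semaphorin, was at 10.9 against 2.9 TPM. Of the class I antigen presentation genes, H2-D1 was at 208.01 to 390.2 TPM against 40.2 to 110.4 TPM, and B2m, its light chain, at 65.0 to 253.6 TPM against 3.73 to 38.7 TPM. Both pairs of ranges were apart. The tetraspanins Tspan6, Tspan8 and Tspan13, membrane organisers, were all among the 74, with Tspan6 at 153.4 against 22.4 TPM and a difference of 2.91 ± 0.85 as deposited and 1.55 ± 0.85 with both steps.

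The chemosensory genes divided. Gnat3, the taste G protein alpha subunit gustducin (chromosome 5 from 17962549 to 18019834, plus strand), had means of 16.5 to 44.6 TPM (median 31.5) in Siglecf-high and 3.20 to 11.98 TPM (median 4.96) in Siglecf-low cells. The ranges did not overlap, and Gnat3 was above 0 in 67.5% of Siglecf-high cells (exact 95% interval 59.7% to 74.6%) and 31.8% of Siglecf-low cells (24.4% to 39.9%). Intervals of this kind cover counting error only. In matched cells the shares of Gnat3 were 60.8% and 33.8%. Ffar3, a receptor for short-chain fatty acids, ran from 50.9 to 75.1 TPM against 8.89 to 28.3 TPM. Calhm3, a subunit of the channel through which taste cells release ATP (chromosome 19 from 47151609 to 47157764, minus strand), was above 0 in 66 Siglecf-high cells (40.5%, 32.9% to 48.4%) and 9 Siglecf-low cells (6.08%, 2.82% to 11.2%). It averaged 22.3 against 2.64 TPM, and 2 plate sets had it listed at 0 on the Siglecf-low side. Plcb2, the phospholipase C of the taste cascade, differed by only 0.13 ± 0.48, with overlapping means of 30.2 to 51.1 TPM against 23.9 to 63.5 TPM. Rescaled, Plcb2 was called lower at −0.65, and with both steps it was −0.30 and not called. Plcg2, a related phospholipase used downstream of tyrosine kinases, was at 51.1 against 22.4 TPM and was called in every comparison but the rescaled one.

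Over the 14 fixed taste transduction genes, 7 were tested as deposited, of which 5 were higher and none lower. Matching left 3 of 7 higher, rescaling 3 of 9 with 1 lower, and both steps 3 of 9. The median was 1.22 as deposited and 0.66 with both steps, against 0.89 and −0.01 over all tested genes. Ffar3 and Gnat3 alone were called in all 4. Rgs13, a regulator of G protein signalling, was at 116.9 against 25.8 TPM, a difference of 2.29 ± 1.17. In matched cells the difference of Rgs13 was 0.85 but above 0 in only 4 of 6 plate sets, so it was not called.

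Among proteins that work with the tail motifs of Siglec receptors, 5 of 7 tested list members were higher as deposited and 4 of 7 in matched cells, but only 1 of 12 when rescaled and 1 of 12 with both steps. Ptpn6, the phosphatase SHP-1, ranged from 587.9 to 1712 TPM in Siglecf-high and from 210.8 to 650.7 TPM in Siglecf-low cells. Its ranges overlapped, and its difference was 1.32 ± 0.89 as deposited, 0.89 in matched cells and 0.44, without a call, with both steps. Inpp5d, the phosphatase SHIP1, was not called in any comparison (0.61 ± 0.65 as deposited, −0.35 with both steps), and Sh2d6, an adaptor protein abundant in tuft cells, was at 902.5 against 672.6 TPM with a difference of 0.40 ± 0.68. None of the 8 other Siglec family genes reached 10 TPM on a side. Mag had the highest mean of them, 8.43 TPM in Siglecf-high and 3.17 TPM in Siglecf-low cells. Of 20 genes for making or transferring sialic acid, the sugar that Siglecs bind, 5 were tested as deposited and none was called.

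**Figure D3:**
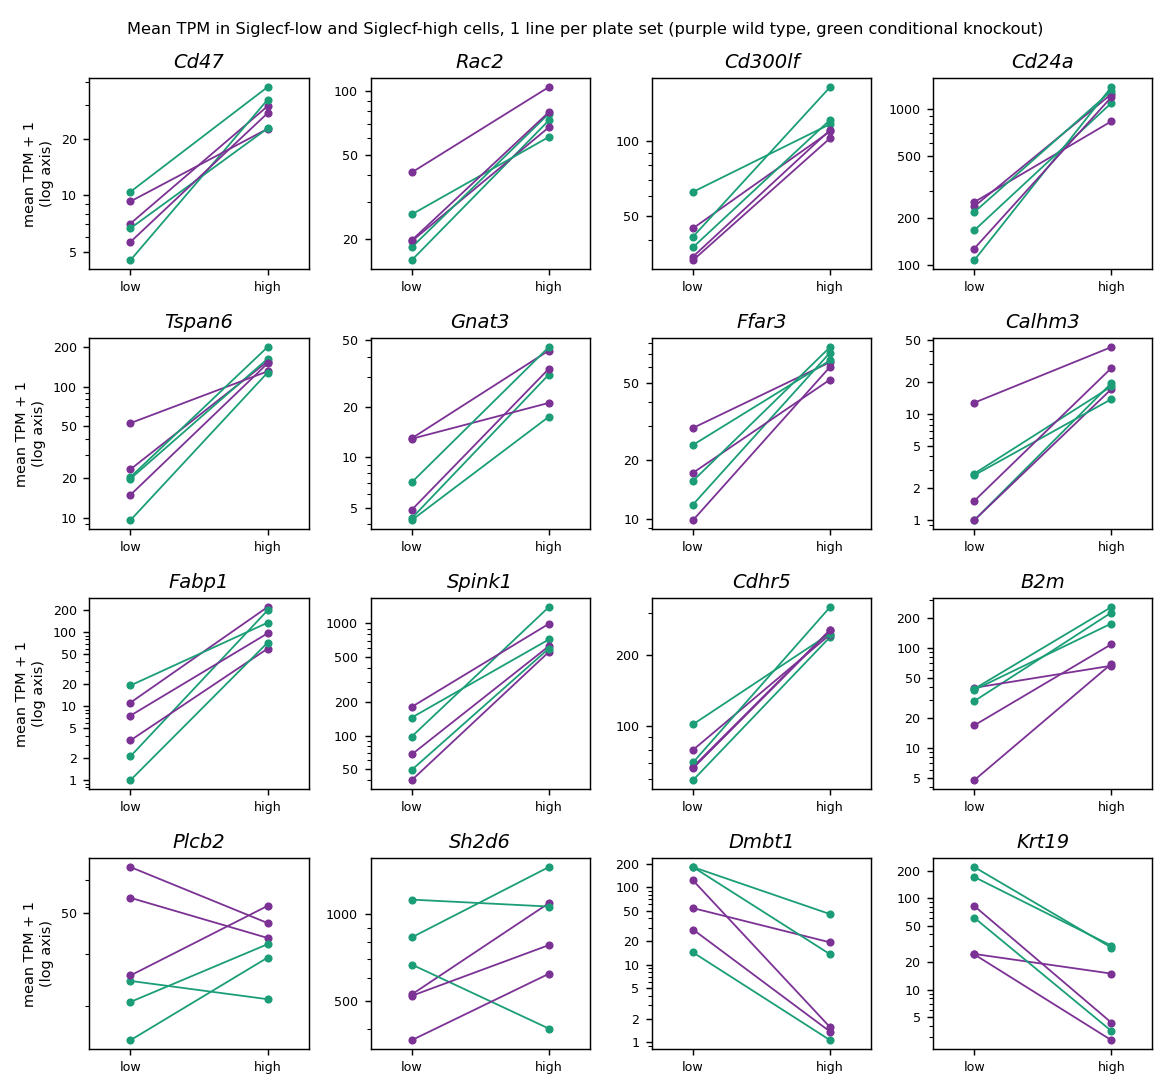
Mean TPM plus 1 on log axes in the Siglecf-low and Siglecf-high cells of each plate set, joined by a line (purple wild type, green conditional knockout; the axes differ between panels), for 16 genes. Lines rise in all 6 plate sets for the first 12 genes, run both ways for Plcb2 and Sh2d6 and fall in all 6 for Dmbt1 and Krt19.

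The 36 genes listed for immune-type tuft cells gave 24 tested as deposited, 19 higher and none lower, with a median of 1.37. Matched, 10 of 23 were higher with a median of 0.96; rescaled, 7 of 28 with 0.54; with both steps, 7 of 28 were higher and 1 lower, with a median of 0.54. Ffar3, Rac2 and Cd300lf were among those called in all 4. The list for neuronal-type tuft cells gave 5 of 10 higher as deposited with a median of 0.69, under that of all tested genes. Matching left 1 of 9 higher, rescaling 1 of 18 with 3 lower, and both steps none of 18 with 1 lower, at medians of 0.45, −0.11 and 0.11. Those of all tested genes were 0.28, 0.22 and −0.01, so the list lay above them in matched cells and with both steps and below them when rescaled. Nrgn, the calmodulin-binding protein neurogranin, was the member called higher in matched cells, at 28.5 against 5.47 TPM as deposited. Kcnn4, a calcium-activated potassium channel, was called lower when rescaled (−0.92) and with both steps (−1.91), but was −0.10 as deposited. The difference between the lists was not tested.

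Markers that define tuft cells were mostly present on both sides. Of 47 core tuft genes, 44 were tested as deposited and 29 were higher, 20 of 44 in matched cells, 9 of 44 with 2 lower when rescaled, and 11 of 45 with both steps. The medians fell from 1.21 to 0.85, 0.46 and 0.49. Pou2f3, the lineage factor, was at 27.4 against 13.7 TPM, with overlapping plate-set means, and its difference of 0.94 ± 0.22 was called only as deposited; with both steps it was 0.19. Spib, an ETS factor, was at 68.6 against 24.5 TPM and was called in every comparison but the one with both steps, where it was 0.89. Chat, which makes acetylcholine, was 0.74 higher as deposited and 0.71 higher in matched cells but −0.03 when rescaled. With both steps Chat was at 0.39, without a call. Il25 was above 0 in 64 Siglecf-high cells (39.3%) and 19 Siglecf-low cells (12.8%). It averaged 14.9 against 3.94 TPM and was called only as deposited, at 2.02 ± 1.05. Its difference was 1.69 ± 1.84 matched, 2.05 ± 2.32 rescaled and 1.73 ± 3.13 with both steps. The sign was above 0 in 4, 5 and 3 of 6 plate sets there, so the call was lost on sign, not size. Krt18 and Krt8, the keratins of simple epithelia, were 1.90 ± 0.30 and 1.58 ± 0.27 higher as deposited. Matched, they were 1.51 and 1.17 higher, and as 2 of the abundant genes left out on rescaling they could not be called in all 4.

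Fabp1, a fatty acid-binding protein (chromosome 6 from 71199827 to 71205023, plus strand), had the largest difference as deposited among named genes. Its plate-set means were 58.8 to 217.4 TPM (median 114.3) in Siglecf-high and 0 to 18.1 TPM (median 4.45) in Siglecf-low cells, a difference of 4.61 ± 1.46. It was above 0 in 68 Siglecf-high cells (41.7%) and 11 Siglecf-low cells (7.43%), and cells between the thresholds averaged 36.8 TPM. Mgst3, a glutathione transferase related to leukotriene C4 synthase, was at 191.7 against 55.4 TPM and was called in all 4. Of the eicosanoid synthesis list, 6 of 9 tested genes were higher as deposited, 3 of 8 in matched cells, 3 of 12 rescaled and 1 of 13, Mgst3, with both steps, and none was lower. The list medians were 1.28, 0.88, 0.40 and −0.02, against 0.89, 0.28, 0.22 and −0.01 over all tested genes. Ltc4s itself was at 237.96 against 100.7 TPM and called only as deposited. Ptgs1, cyclooxygenase 1, was at 68.6 against 25.99 TPM and was 0.89 higher in matched cells, but was not called on either rescaled scale. Alox5ap, the partner of 5-lipoxygenase, was not called (1.00 ± 0.94, and −0.40 in matched cells). Asah1, a lysosomal ceramidase, was at 47.96 against 9.05 TPM and Abca3, a lipid transporter, at 19.4 against 7.5 TPM; both were called in all 4.

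Spink1, a trypsin inhibitor, had means of 554.9 to 1397 TPM (median 671.4) in Siglecf-high and 39.05 to 179.2 TPM (median 81.96) in Siglecf-low cells. Its difference was 3.20 ± 0.67 as deposited and 2.49 ± 1.42 with both steps, and it was above 0 in 69.9% and 33.1% of cells. Nrg4, a growth factor of the EGF family, was at 10.1 against 0.89 TPM and Agt, angiotensinogen, at 108.2 against 34.9 TPM. The microvillar cadherins Cdhr5 and Cdhr2, which link the tips of brush border microvilli, were at 256.96 against 73.5 TPM and 94.6 against 32.3 TPM. Neither overlapped between the sides, and Cdhr5 was 1.04 ± 0.39 and Cdhr2 1.18 ± 0.47 higher with both steps. Slc9a3r1, a scaffold of the apical membrane, Crb3, a polarity protein, and Cldn3, a tight junction claudin, were also called in all 4, at 32.9 against 8.8 TPM, 23.8 against 9.0 TPM and 210.6 against 85.7 TPM. Folr1, a folate receptor, was at 35.2 against 3.66 TPM. Tubb4b, a tubulin, was at 331.7 against 73.1 TPM and was 1.12 ± 0.16 higher with both steps. It was the one member of the brush and cytoskeleton list that was higher in all 4. Of that list 10 of 21 were higher and 1 lower as deposited, but 2 of 21 were higher and 1 lower with both steps, at medians of 1.07 and 0.36.

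The remaining genes higher in all 4 comparisons included Fth1 and Ftl1, the ferritin chains, at 507.5 against 156.8 TPM and 683.3 against 241.3 TPM; both have many processed pseudogenes, so their values are uncertain. Ldha and Aldoa, glycolytic enzymes, were at 239.2 against 68.2 TPM and 159.5 against 63.4 TPM. Housekeeping genes were also higher as deposited in 6 of 10 tested, with a median of 1.09. In matched cells 1 of 9 was higher and 2 lower, rescaled 4 of 12 were higher, and with both steps 1 of 12 was higher and 3 lower, at medians of 0.12, 0.54 and 0.11. Gapdh, another glycolytic enzyme, was at 274.3 against 126.6 TPM and was called as deposited (1.15 ± 0.61) and rescaled (0.59), but not in matched cells (0.52) or with both steps (0.43). Id2, an inhibitor of basic helix-loop-helix factors, was at 30.0 against 6.6 TPM, and Nfkbia, the inhibitor of NF-kappaB, at 28.2 against 11.1 TPM. Fcna, Krt23, Srpx2, Rhog, Abi3, Trim40, Rnasek, Ifi27l2b and Gde1 also belonged to the set, as did Ccnj, Tmem106a, Dnajc8, Csnk2b, Mast2, Tmem176a, Dpysl2, Hist1h2bc, Psma6, Pdlim5, Itm2b, Lrrc42, Stub1, Gabarap, Ethe1, Ube2k, Hsd17b11, Tuba1c, Reep5, Sepp1, Limd2, Efhd2, Spint2, Sdc4, Hdac1, Cib1, Plekhb2, Rab7 and Ptma. Over the 74 genes the median difference was 1.85 as deposited, 1.43 in matched cells, 1.24 rescaled and 1.22 with both steps.

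By size alone, on TPM as deposited, Hotairm1, AA467197, Tm4sf4, Chchd7, Mrps33 and Atox1 were also among the 12 named genes with the largest increase, but each missed a call in at least 1 of the other comparisons. Hotairm1, a long non-coding RNA of the Hoxa cluster, was at 78.4 against 2.31 TPM with an SD of 3.08 around its difference of 3.53, and 1 cell held 40.9% of its summed TPM on the Siglecf-high side.

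Interferon response genes were higher as deposited in 9 of 16 tested, with a median of 1.37. In matched cells 3 of 14 were higher, rescaled 5 of 24 and with both steps 3 of 24, at medians of 0.65, 1.06 and 0.65 and with none lower. Ifi27l2b was the one called in all 4, at 54.6 to 232.9 TPM against 14.0 to 101.4 TPM, with ranges that overlapped. Irf7, the interferon-induced transcription factor, was at 98.98 against 23.03 TPM and called as deposited and in matched cells. Irf7 also differed between plate sets: it was at 22.6 and 2.86 TPM in plate set 1, but at 238.6 and 35.0 TPM in plate set 2. Of the type 2 cytokine genes, 3 of 5 were higher as deposited, none of 5 in matched cells, none of 9 rescaled and 2 of 9 with both steps.

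**Figure D4:**
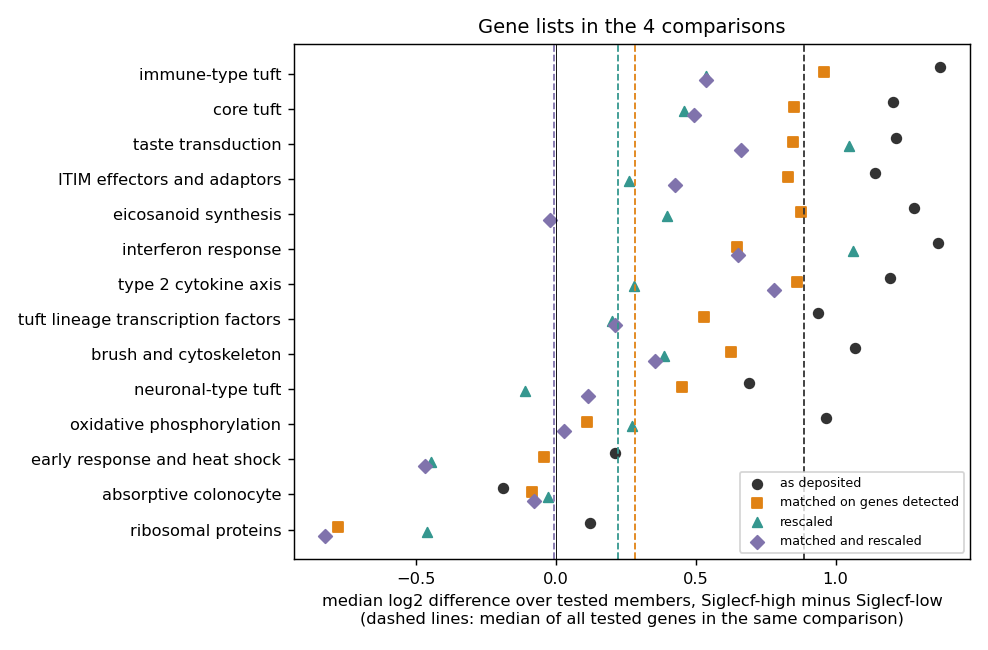
Median log2 difference between Siglecf-high and Siglecf-low cells over the tested members of 14 gene lists, in the 4 comparisons, with a dashed line at the median of all tested genes in the same comparison. The immune-type tuft, core tuft, taste, interferon and type 2 cytokine lists lie to the right of the matching line in each comparison. So do the brush and cytoskeleton list and the list of partners of Siglec tail motifs (ITIM effectors and adaptors). The ribosomal protein, absorptive colonocyte and early response lists lie to the left of it in each.

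Fewer genes were lower in Siglecf-high cells. Dmbt1, a secreted scavenger receptor protein (chromosome 7 from 131032053 to 131121630, plus strand), had means of 0.071 to 44.05 TPM (median 6.63) in Siglecf-high and 13.4 to 180.8 TPM (median 87.1) in Siglecf-low cells. The ranges overlapped, but Dmbt1 was lower in 6 of 6 plate sets, by a difference of −3.60 ± 1.73. Krt19, a keratin of simple epithelia, was at 1.79 to 29.2 TPM (median 8.64) against 23.2 to 217.5 TPM (median 70.4), a difference of −2.93 ± 1.28. These values rest on few cells: Dmbt1 was above 0 in 22 Siglecf-high and 34 Siglecf-low cells, and Krt19 in 24 and 28. A single cell held 45.7% of the Dmbt1 summed TPM on the Siglecf-high side, and a single cell 34.8% of that of Krt19 on the Siglecf-low side. Csrp2, a LIM-domain protein, was above 0 in 7 and 23 cells, with a difference of −2.09 ± 1.48 that was only −0.0019 in plate set 1. Tsfm, a mitochondrial elongation factor, at −1.53 ± 0.97 and only −0.0096 in plate set 3, and 2610528A11Rik, at −2.56, complete the 5 called lower in all 4. Ggnbp1, Trap1, Firre and Erdr1 were called lower as deposited but missed that call in at least 1 other comparison, and Erdr1 was 0.42 higher in matched cells and 0.12 higher with both steps.

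Ribosomal protein genes had a median under that of all tested genes in each comparison, as did the early response, absorptive colonocyte and stem and progenitor lists. None of the 25 ribosomal protein genes was called as deposited, where their median difference of 0.12 was far under that of all tested genes. In matched cells 5 of 24 were lower with a median of −0.78, when rescaled 5 of 24 with −0.46, and with both steps 8 of 24 with −0.83, and no member was higher in any comparison. Rps6 was at 54.9 against 71.3 TPM as deposited (−0.20 ± 0.80) and −1.85 with both steps, and Rplp0 was at 205.3 against 221.5 TPM (0.01 ± 0.69) and −0.92 with both steps. Oxidative phosphorylation genes, by contrast, gave 3 of 20 higher as deposited and none of 20 in matched cells, with a median that fell from 0.97 to 0.11. Early response genes such as Fos (11.7 against 37.9 TPM) and Egr1 gave no call as deposited, 2 of 23 lower when rescaled and 1 of 23 with both steps. Of the stem and progenitor genes 3 were tested as deposited and 1 was higher, Sox9, a transcription factor also found in tuft cells, at 36.8 against 20.1 TPM (0.86), which was not called in the other comparisons. Lgr5, a stem cell marker, was at 24.7 against 30.7 TPM, a difference of −0.34 ± 0.80, and was not called in any comparison. With both steps 12 stem and progenitor genes were tested and none was called, at a median of −1.39.

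Markers of other cell types were read on both sides. Eosinophils and some macrophages also carry Siglecf, but the 12 eosinophil markers summed to 0 to 0.21 TPM by plate set in Siglecf-high and 0 to 0.52 TPM in Siglecf-low cells, with 11 of the 12 at 0 on either side. The 19 macrophage and dendritic cell markers summed to 0.087 to 1.27 TPM and 0 to 3.23 TPM, the 18 lymphocyte markers to 0 to 3.59 and 0 to 0.74 TPM, and the 12 stromal and endothelial markers to 0 to 1.41 and 0 to 1.18 TPM. Ptprc, which encodes CD45 and is known in tuft cells, was at 15.8 against 8.55 TPM, and was 0.89 ± 0.56 higher as deposited but −0.26 with both steps. Epcam, on which the cells were stained, was at 117.6 against 53.8 TPM. The 20 absorptive colonocyte markers summed to 334.4 to 761.1 TPM in Siglecf-high and 107.2 to 841.3 TPM in Siglecf-low cells, and their part in any difference was not tested. Of these Cdhr5, which tuft cells also express, was the member called in all 4. Fabp1, also called in all 4, was not on this list. The 14 enteroendocrine markers summed to 25.4 to 105.3 TPM and 11.9 to 42.04 TPM; 13 of them were at 0 on both sides, and the sum is that of Sct, which encodes secretin and was not called in any comparison. The 15 goblet markers summed to 10.6 to 23.4 TPM and 6.84 to 30.0 TPM, with 5 at 0 on each side. The part of these sums in any difference was not tested. Core tuft genes summed to 8812 to 12632 TPM and 3010 to 5019 TPM, and all 47 were above 0 on both sides.

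Cells between the thresholds entered none of the comparisons. Of the 74 genes higher in all 4 comparisons, 54 (72.97%) had a mean in these cells that lay between those of the sides in at least 5 of the 6 plate sets, against 29.9% of the 839 genes higher as deposited, which include the 74. The 74 were selected from the 839 for differences that held in all 4 comparisons. A wider or steadier gap between the sides leaves more room for the middle mean to fall inside it. The contrast between these shares can therefore follow from the selection, and its part was not tested. Cd300lf, at 68.1 TPM on average, Cd24a, at 355.5 TPM, and Spink1, at 218.2 TPM, lay between the sides in 6 of 6 plate sets. For the 5 genes lower in all 4 none did so in 5 or more plate sets. The number of genes detected also lay between in these cells, and its part in the order was not tested.

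The genotypes were compared last. Ipmk, the targeted gene, checks the labels: it was above 0 in 22.8%, 17.6% and 20.8% of tuft-class cells of wild type plate sets 1, 3 and 6, and in 22.6%, 18.6%, 10.9% and 11.1% in the sets labelled conditional knockout. Its mean was 1.83 ± 0.32 TPM (SD, n = 3) in wild type and 5.21 ± 5.11 TPM (SD, n = 4) in conditional knockout plate sets. The second mean was raised by plate set 4, at 12.5 TPM, against 4.84 TPM or less in plate sets 2, 5 and 7. A single cell held 46.2% of the summed Ipmk TPM on the Siglecf-high side. The share of cells above 0 averaged 20.4% ± 2.65 in wild type and 15.8% ± 5.78 in conditional knockout plate sets. Plate sets of the labels overlapped in both measures, so neither settles the labels. Directions drawn by genotype rest on the labels alone. TPM of the whole gene does not show whether floxed exons were present. Siglecf-high cells made up 42.1%, 43.2% and 23.2% of tuft-class cells in plate sets 1, 3 and 6 labelled wild type. They made up 30.2%, 38.6%, 41.8% and 22.2% in plate sets 2, 4, 5 and 7 labelled conditional knockout. The means of 36.2% ± 11.2 and 33.2% ± 8.81 differed by 2.99 percentage points, well within the spread of either. The difference was −0.67 without plate set 7, which has 9 tuft-class cells, and 9.47 without plate set 6, where it was above the SDs of 0.805 (n = 2) and 8.81 (n = 4). As no plate set holds both labels, genotype and plate set cannot be told apart.

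**Figure D5:**
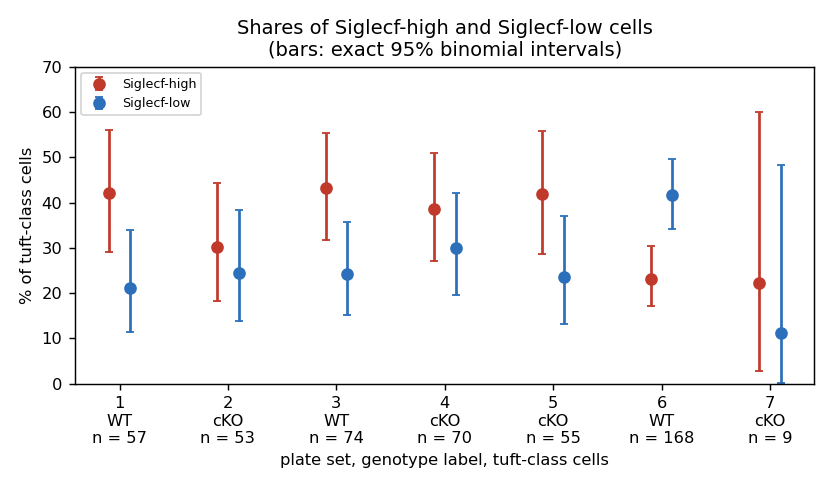
Percent of tuft-class cells that were Siglecf-high (red) and Siglecf-low (blue) in each plate set, with exact 95% binomial intervals. Siglecf-high shares run from 22.2% to 43.2%, plate set 6 is the one where Siglecf-low cells outnumber Siglecf-high cells, and the genotypes overlap.

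Siglecf-high against Siglecf-low differences were also read under each label. A gene called in all 4 comparisons has the same sign in every plate set compared, and these carry both labels. For such genes a difference above 0 under both labels therefore follows from the rule and is no result. Over the 74 genes higher in all 4 comparisons, the as-deposited difference had a median of 1.77 in the wild type and 2.01 in the conditional knockout plate sets, and the lowest value was 1.12 and 1.10. For Cd24a it was 2.43 and 2.98, for Gnat3 1.75 and 2.53, and for Cd300lf 1.55 under both. Rnasek, a protein of the vacuolar proton pump, had 1.51 in wild type and 4.12 in conditional knockout plate sets. Whether such values differ between labels was not tested. With each plate set left out in turn, 69 to 74 of the 74 genes were still higher in all 4 comparisons and 21 to 50 others joined them, and 4 or 5 of the 5 were still lower with 1 to 9 others. A gene with the same sign in all plate sets keeps it when 1 is left out, so it can be lost only by size or by the floor. Most of this retention therefore follows from the rule.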

How the data were processed

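Single colon cells were profiled by Smart-seq2, with 1 cell per GEO sample. The authors deposited TPM for 46517 mouse genes per well. Build mm10, RSEM 1.3.3 and Bowtie2 2.4.2 are named, without settings, in the submitters' processing notes. Neither the annotation nor the use of strand is stated there, and TPM keeps no read depth. Columns came from 15 plates in 7 plate sets, and a further 38 columns of 1 plate of plate set 7 were not used. No doublet caller was run, and no tuft-class cells had identical columns.

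Cells, sides, matching, rescaling and calls were computed with Python 3.11.15, pandas 2.3.3, numpy 2.4.6 and scipy 1.17.1, and drawn with matplotlib 3.10.9, as the report states. The comparison and the matching were tested on simulated data. The cells simulated for the comparison had no gap in genes detected between the sides, so that test does not cover calls under such a gap. The pseudocount was 1 TPM and understates differences of low genes. The means weight plate sets equally. Because RSEM assigns ambiguous reads by a model, paralogs and pseudogenes are uncertain. Gene coordinates are from GENCODE vM21 and promoters from RefSeq.

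Named are Siglecf, Trpm5, Dclk1, Epcam, Ptprc, Il25, Chat, Pou2f3, Gapdh and Ipmk; the 12 called genes with the largest increase as deposited and the 8 of 11 called lower whose symbols could be named; called members of 29 gene lists with up to 4 others each; and, chosen after values were seen, the genes called in all 4 comparisons. A gene that this rule names is not reported here. Symbols of Gm plus digits, ending in Rik or starting mt- were counted, not named by size. The cells, lists and rules were chosen with earlier results of these data known. No p-values were computed, because no label names an animal. Matching and rescaling together was an alternative chosen after seeing the data.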

Additional observations from a re-analysis of the deposited data

Results flagged for a closer look

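The named genes, the shares of cells and the genes detected were searched for a plate set that stood far from the others, and 2 of them (1.82%), both genes, had one. The search rule flags about 1 of 20 unrelated groups by chance. The genes share the same cells, and many were named for having 1 sign in all plate sets, so that rate may not hold. Both genes are listed as values only. Atox1, a copper chaperone, had a difference of 5.10 in plate set 5, where it was listed at 0 in Siglecf-low cells, against 1.92 to 3.05 in the other plate sets. Ptpn6, the phosphatase SHP-1, had 3.02 in plate set 2, from means of 1712 and 210.8 TPM, against 0.39 to 1.37 in the others.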

How the results depend on the processing

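The share of tested genes higher in Siglecf-high cells, 31.1%, and lower, 0.408%, depended on the processing. They were 10.4% and 2.24% matched on genes detected, 5.78% and 2.53% rescaled, and 2.67% and 1.87% with both steps, chosen after seeing the data. The rescaled shares are of 9629 genes, and of 9558 with both steps, because the floor of 10 TPM was kept. These numbers are nearer to the 9941 genes tested as deposited at a floor of 1 TPM than to the 2694 of the main comparison. A floor of 1 TPM gave 16.5% and 0.372% of 9941 genes, a floor of 50 TPM 40.9% and 0.377% of 530, conditional knockout plate sets alone 48.3% and 2.53%, and the same sign in all but 1 plate set 53.4% and 1.93%. At least 2000 genes with rescaling, chosen after seeing the data, gave 7.98% and 3.27%. Lower genes were 0.223% with a pseudocount of 10 TPM, 2.06% with Siglecf-low at 0 TPM, 0.668% with Siglecf-high at 120 TPM or more, 1.58% with at least 2000 genes, which leaves 5 plate sets, and 2.69% in wild type plate sets alone. Leaving out each plate set gave 30.8% to 39.9% higher and 0.439% (without plate set 3) to 0.918% lower (without plate set 5), with 0.758%, 0.664%, 0.695% and 0.717% lower without plate sets 1, 2, 4 and 6. Fewer plate sets ease the demand for 1 sign by construction; otherwise the cause was not tested. The gap in genes detected was 87.8 in matched cells by construction. The share difference between genotypes was −1.70 with at least 2000 genes and spanned −0.67 to 9.47 without each plate set; the last, without plate set 6, exceeded the SDs of both genotypes. Of 2452 values of named genes under 23 alternatives, 2182 stayed within the SD between plate sets. Turns of sign were counted as 8, all in genes called as deposited. Erdr1 turned to 0.42 matched and 0.12 with both steps. Ptprc turned to −0.021 rescaled, −0.26 with both steps and −0.13 with at least 2000 genes and rescaling. Chat turned to −0.027 and Snrnp25 to −0.018 rescaled, and Il13ra1 to −0.027 with both steps. Named genes without a call as deposited also changed sign and are not among the 8. For example, Inpp5d went from 0.61 to −0.35 with both steps. When rescaled, Plcb2 went from 0.13 to −0.65, and Sh2d6 fell to −0.22. No paired analysis was possible because replicate numbers are accession order only; the plate sets, within which all differences were taken, are the one link between the sides. A gene listed at 0 may have been missed at a depth that TPM does not give.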
